A study of Mus musculus with 12 samples.

Results

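Open chromatin was compared between mouse HoxB8 cells that carried a guide RNA against Asxl1 and cells that carried a non-targeting guide, both with a CSF3R T618I vector, by ATAC-seq, which cuts and tags accessible DNA with the Tn5 transposase. The comparison used 6 of the 12 libraries of the study, chosen by their labels: 3 of the group sgB2/T618I (Asxl1 guide B2 with pMICH-CSF3R-T618I) and 3 of the group sgNT/T618I (non-targeting guide with the same vector). The other 6 libraries, 3 of sgB2/Empty and 3 of sgNT/Empty, carried pMICH-Empty and served here to see how the same guide behaved without T618I. All 12 came from bone marrow cells immortalised as the HoxB8 line, grown with stem cell factor and estrogen, and were taken 48 h after estrogen was removed. Nothing in the labels tells separate cultures from repeat libraries of 1 culture, a clone from a pool, or which edit the guide made, so the p-values measure the spread between these libraries, which may be technical.

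ASXL1 is a scaffold protein that activates BAP1, the enzyme that takes ubiquitin off histone H2A, the mark that Polycomb complexes place on silenced genes. Truncating ASXL1 mutations are frequent in myeloid cancers and often occur beside CSF3R mutations in neutrophilic leukemia. CSF3R is the receptor for granulocyte colony-stimulating factor, and the T618I change makes it signal through JAK kinases and STAT factors without its ligand, which drives neutrophil production. In HoxB8 lines an estrogen-dependent Hoxb8 holds progenitors in a dividing state, and estrogen removal lets them mature into neutrophils or macrophages.

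The start-site sequences of 6 genes are printed because the peak over each start differed between the groups in presence or rank. They run from 250 bases before to 50 bases after the start on the gene's strand, as RefSeq gives them for GRCm38.p6, whose coordinates are those of mm10. The capitals mark matches, on either strand, to the letters TGANTCA (AP-1), GGAAGT (ETS), TTGCNNAA (C/EBP), TTCNNNGAA (STAT) or TGTGGT (RUNX). The first 3 starts, of Spp1 (osteopontin, a secreted matrix protein and macrophage cytokine), Met (the hepatocyte growth factor receptor) and Crim1 (a membrane protein that binds BMPs), had a peak in fewer sgB2/T618I than sgNT/T618I libraries.
Spp1, chr5:104434861-104435160, plus strand: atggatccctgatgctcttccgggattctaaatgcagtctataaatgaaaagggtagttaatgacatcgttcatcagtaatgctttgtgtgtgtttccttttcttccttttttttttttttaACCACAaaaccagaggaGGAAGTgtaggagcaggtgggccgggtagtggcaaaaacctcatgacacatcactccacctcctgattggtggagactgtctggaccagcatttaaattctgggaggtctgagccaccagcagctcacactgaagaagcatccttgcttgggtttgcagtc
Met, chr6:17463707-17464006, plus strand: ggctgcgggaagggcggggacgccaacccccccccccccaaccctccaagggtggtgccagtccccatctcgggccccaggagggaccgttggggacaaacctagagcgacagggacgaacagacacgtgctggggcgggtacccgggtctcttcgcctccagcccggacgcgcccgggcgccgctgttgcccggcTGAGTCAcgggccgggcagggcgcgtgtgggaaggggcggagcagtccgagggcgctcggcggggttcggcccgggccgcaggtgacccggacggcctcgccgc
Crim1, chr17:78199998-78200297, plus strand: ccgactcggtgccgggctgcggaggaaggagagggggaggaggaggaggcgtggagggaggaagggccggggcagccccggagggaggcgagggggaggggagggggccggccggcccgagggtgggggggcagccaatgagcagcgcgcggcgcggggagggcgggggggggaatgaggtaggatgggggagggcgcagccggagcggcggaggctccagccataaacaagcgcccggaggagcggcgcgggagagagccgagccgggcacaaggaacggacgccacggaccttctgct
The start of Fhit, which encodes a diadenosine triphosphate hydrolase at a fragile site, had a peak in all 3 sgB2/T618I libraries and none of the sgNT/T618I libraries.
Fhit, chr14:11161986-11162285, minus strand: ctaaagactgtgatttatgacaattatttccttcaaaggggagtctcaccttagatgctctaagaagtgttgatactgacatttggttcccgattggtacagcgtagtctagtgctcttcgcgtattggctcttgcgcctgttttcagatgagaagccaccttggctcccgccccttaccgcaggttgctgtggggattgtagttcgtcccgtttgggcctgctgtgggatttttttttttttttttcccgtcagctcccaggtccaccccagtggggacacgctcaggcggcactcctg
The starts of Plcb1 (a phospholipase C) and Ece1 (endothelin-converting enzyme) had a peak in all 6 libraries, with a lower rank at Plcb1 and a higher rank at Ece1 in sgB2/T618I.
Plcb1, chr2:134785914-134786213, plus strand: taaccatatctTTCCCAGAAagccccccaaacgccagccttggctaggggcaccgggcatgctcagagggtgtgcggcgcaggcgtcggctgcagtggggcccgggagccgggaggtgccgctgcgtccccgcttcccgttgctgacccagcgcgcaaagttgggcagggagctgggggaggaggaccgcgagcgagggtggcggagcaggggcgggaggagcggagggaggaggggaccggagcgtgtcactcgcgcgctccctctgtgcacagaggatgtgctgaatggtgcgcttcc
Ece1, chr4:137861987-137862286, plus strand: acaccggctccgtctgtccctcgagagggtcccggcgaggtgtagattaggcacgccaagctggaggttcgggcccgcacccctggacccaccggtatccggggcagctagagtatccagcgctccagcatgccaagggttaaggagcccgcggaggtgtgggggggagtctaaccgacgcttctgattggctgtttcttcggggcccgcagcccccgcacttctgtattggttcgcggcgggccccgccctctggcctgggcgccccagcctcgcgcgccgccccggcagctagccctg
Counted from the start, Spp1 held an ETS match at -111 and, on the opposite strand, a RUNX match at -128, Met an AP-1 match at -54, and Plcb1 a STAT match at -239. Of 32585 mouse start-site windows of the same length, 23.9% held the ETS letters, 16.6% the RUNX letters, 7.85% the AP-1 letters, 8.33% the STAT letters and 10.9% the C/EBP letters. The Spp1 window held 3 CpG dinucleotides, against 34 in Met, 31 in Crim1, 12 in Fhit, 26 in Plcb1 and 28 in Ece1, beside a median of 7 over all windows.

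The sgB2/T618I lists held 23695 to 32975 peaks and the sgNT/T618I lists 26112 to 29642, with covered lengths of 14.6 ± 2.88 and 16.3 ± 0.52 Mb (SD, n = 3 each, exact permutation p = 0.4). Median peak width was 450 ± 3.51 bp in sgB2/T618I and 491 ± 32.8 bp in sgNT/T618I, with no overlap (exact permutation p = 0.1, the smallest that 3 against 3 allows; Benjamini-Hochberg adjusted p = 0.2 over 6 measures). Of the covered length, 9.14 ± 0.49% in sgB2/T618I and 6.73 ± 0.13% in sgNT/T618I lay on chromosome 1. On chromosome X lay 1.77 ± 0.02% in sgB2/T618I and 2.17 ± 0.03% in sgNT/T618I, again without overlap (SD, n = 3 each, exact permutation p = 0.1 and adjusted p = 0.2 for both chromosomes). Covered lengths were scaled to the total outside chromosomes 1 and X, and results on these chromosomes are given apart. Covered bases were shared to a mean Jaccard index of 0.577 among sgB2/T618I libraries, 0.651 among sgNT/T618I libraries and 0.581 between the groups. The guide's edit could not be read from peak lists. The Asxl1 window held 3.35, 4.99 and 4.27 kb of peaks in sgB2/T618I and 5.07, 5.68 and 5.22 kb in sgNT/T618I, a log2 change of -0.32 ± 0.22 (SE, limma adjusted p = 0.722).

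For each gene, the length covered by peaks was summed over the gene and 50 kb on either side, scaled, and tested as log2 of the length plus 500 bp. Peak calling on bulk cells cannot tell a site open in fewer cells from a site less open in each cell, and a site near the caller's threshold can be listed in 1 library and missed in the next. Of 15285 gene windows tested, 25 had more covered length in sgB2/T618I and 25 had less (0.164% each way, limma adjusted p below 0.05), while 1523 had an unadjusted p below 0.05. Outside chromosomes 1 and X, 13 windows at 11 loci were higher (0.093% of 13976) and 19 windows at 17 loci were lower (0.136%). The values of the groups did not overlap in 18.4% of all windows, and the median log2 change of all windows was 0.035. Counts depended on single libraries: without sgNT/T618I replicate 1 the calls fell to 2 higher and 5 lower, without replicate 2 to 11 and 13, without replicate 3 to 19 and 8, and without sgB2/T618I replicates 1, 2 or 3 they were 12 and 14, 17 and 39, or 22 and 13. With lists of equal length (the 18484 strongest peaks of each), 100 windows were higher and 95 lower. Of the 50 calls 35 were tested there, all with the same sign, and 12 were called again. Over the alternatives that tested each gene, the call held in 15 of 16 for Spp1, 13 of 14 for Bcl11a, 15 of 17 for Akap6, 12 of 17 for Fhit, 8 of 15 for Met, 6 of 16 for Thbs1 and 6 of 15 for Fgf4, and the sign held in all of them. Etv1, which passed the filter on low values through sgNT/T618I, kept its call in the 12 alternatives that tested it. Etv1 was not tested in the other 5, among them the one without sgNT/T618I replicate 1. Bmx and Bcl11a also passed that filter only through sgNT/T618I, and Dst, Car8 and Asb18 only through sgB2/T618I. Bcl11a needed its sgNT/Empty values as well. The call held in 8 of 10 alternatives that tested Dst and 4 of 12 for Car8. For Asb18 it held in 11 of 13 and for Bmx in 13 of 15. Other calls that were often lost were those of Kcnj15 and Vmn2r99 (each held in 5 of 15), Msgn1 (6 of 16), Tfb1m (6 of 17) and Sspo (7 of 17).

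**Figure D1:**
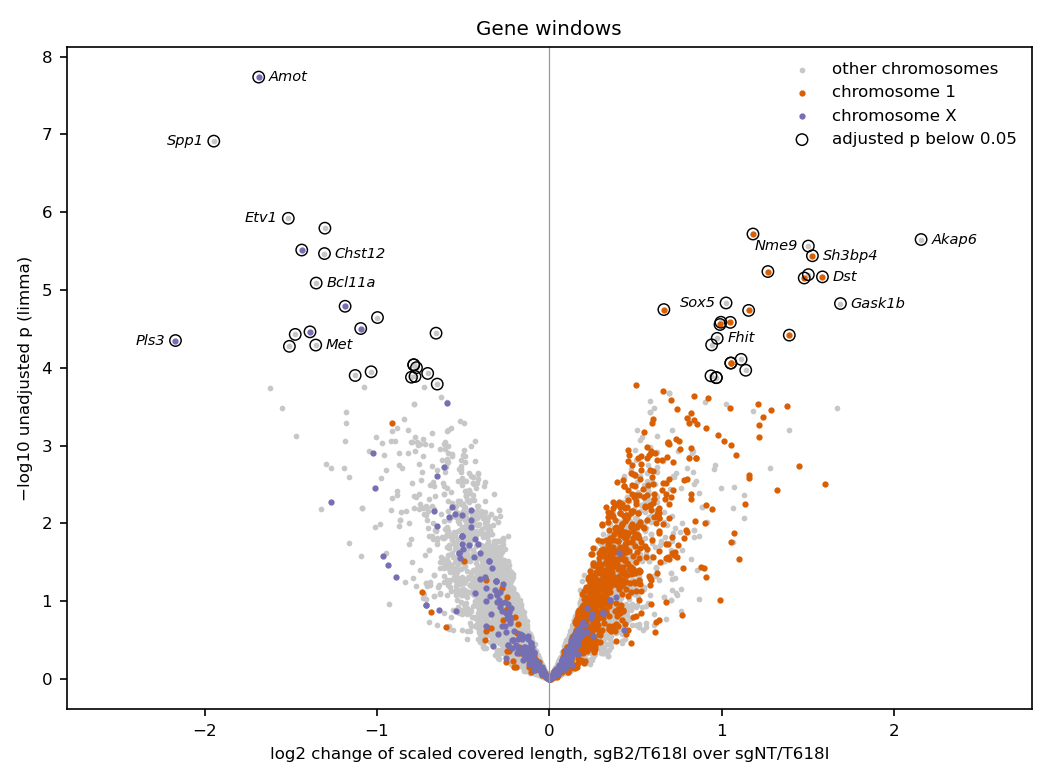
Each point is 1 of the 15285 gene windows, by its log2 change of scaled covered length (x axis, sgB2/T618I over sgNT/T618I) and its −log10 unadjusted p (y axis). Open circles mark the 50 windows past an adjusted p of 0.05; chromosome 1 windows (orange) lie mostly to the right, with a median of 0.29.

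The windows that lost covered length included those of Spp1, Met, Thbs1, Crim1, Ttr and Chst12. The Spp1 window held 0, 0.212 and 0 kb in sgB2/T618I, against 1.68, 1.89 and 1.45 kb in sgNT/T618I. The groups were far apart, and the log2 change was -1.95 ± 0.22 (SE, limma adjusted p = 0.000933). A peak over the Spp1 start printed above (region chr5:104434604-104435417) was called in 1 of 3 sgB2/T618I and 3 of 3 sgNT/T618I libraries, and regions 26.4 kb upstream of it (chr5:104407565-104408761) and 18.4 kb past the gene, inside Pkd2 (chr5:104459480-104460249), were called in 0 and 3. The window of Pkd2, a calcium-permeable cation channel gene next to Spp1, shares these peaks and changed by -1.30. The Met window held 0, 0.175 and 0.453 kb in sgB2/T618I, against 1.01, 1.06 and 1.78 kb in sgNT/T618I, a change of -1.35 ± 0.25 (limma adjusted p = 0.0236). At Met the start-site region (chr6:17463431-17464255) had a peak in 1 and 3 libraries, and a region inside the gene (chr6:17481102-17481520) in 0 and 3. The Thbs1 window, of the matrix glycoprotein thrombospondin 1, held 0.451, 0 and 0 kb in sgB2/T618I, against 0.71, 0.796 and 1.08 kb in sgNT/T618I (log2 change -1.13 ± 0.22, limma adjusted p = 0.0418). Crim1 held 1.02, 0.844 and 1.03 kb in sgB2/T618I, against 1.98, 2.37 and 1.73 kb in sgNT/T618I (log2 change -0.78), and its start-site region (chr17:78199784-78201427) was called in 0 and 3 libraries. Ttr, the gene of the thyroid hormone carrier transthyretin, and Chst12, a chondroitin sulfotransferase gene, also fell, by 1.51 and 1.30 on the log2 scale. The Chst12 window held 1.02, 1.32 and 1.14 kb in sgB2/T618I, against 3.4, 3.41 and 3.98 kb in sgNT/T618I.

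Etv1, Bcl11a, Gabpa, Msgn1 and Zfp516, which encode DNA-binding factors, were also among the lower windows. Sox5 and, on chromosome 1, Gbx2 encode such factors too and were among the higher ones. The window of Etv1, an ETS-family factor, held 0.228, 0.177 and 0.376 kb in sgB2/T618I, against 2.4, 1.48 and 1.26 kb in sgNT/T618I. That is a log2 change of -1.51 ± 0.20 (SE, limma adjusted p = 0.00555). A region 563 bp from the gene (chr12:38778334-38779519) had a peak in 0 of 3 sgB2/T618I and 3 of 3 sgNT/T618I libraries. The window of Bcl11a, a zinc finger repressor of fetal globin genes that lymphoid progenitors need, held 0, 0.141 and 0 kb in sgB2/T618I, against 0.853, 0.842 and 0.968 kb in sgNT/T618I (log2 change -1.35 ± 0.21, limma adjusted p = 0.0083). Its start-site region (chr11:24076494-24078051) was called in 0 and 3 libraries, and in 0 of 3 sgB2/Empty and 3 of 3 sgNT/Empty libraries as well. Gabpa, the DNA-binding subunit of the ETS-family GA-binding protein, shares its window with Atp5j, a subunit gene of mitochondrial ATP synthase. It held 1.17, 1.69 and 1.17 kb in sgB2/T618I, against 2.3, 2.7 and 3.01 kb in sgNT/T618I (log2 change -0.79 ± 0.15, limma adjusted p = 0.0358), but with 10 kb in place of 50 kb around the gene the change was 0.02. Msgn1, a bHLH factor of early mesoderm, fell by 1.03, and Zfp516, a zinc finger factor, by 0.77 on the log2 scale.

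The remaining lower windows were those of Calml3 (a calmodulin-like protein, log2 change -1.47), Ryr2 (a calcium release channel, -0.997), Kcnj15 (a potassium channel, -0.80), Heca (-0.71), Vps13d (a lipid transfer protein, -0.66) and Dnajb12 (a chaperone partner in the endoplasmic reticulum, -0.65). Ryr2 held 1.15, 0.679 and 1.1 kb in sgB2/T618I, against 2.89, 1.77 and 2.72 kb in sgNT/T618I. Vps13d, the widest of them in peaks, held 5.44, 7.05 and 6.22 kb in sgB2/T618I, against 10.3, 10.9 and 9.13 kb in sgNT/T618I, without overlap.

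Among the higher windows, the 2.16 ± 0.30 change (SE, log2, limma adjusted p = 0.00555) of Akap6, which encodes an anchor of protein kinase A at the nuclear envelope of muscle cells, was the largest. Akap6 held 2.85, 3.64 and 2.44 kb in sgB2/T618I, against 0.237, 0.261 and 0.323 kb in sgNT/T618I. All 3 sgB2/T618I libraries stood above every sgNT/T618I library, and regions inside the gene (chr12:53047151-53047607 and chr12:53061540-53062784) were called in 3 and 0 libraries. Gask1b, a gene of a Golgi-associated protein, held 1.64, 1.75 and 1.5 kb in sgB2/T618I, against 0.192, 0 and 0.332 kb in sgNT/T618I (log2 change 1.69). The window shared by Nme9 and Mras, a Ras-family GTPase gene, held 0.976, 1.49 and 0.784 kb in sgB2/T618I, against 0, 0 and 0.164 kb in sgNT/T618I (log2 change 1.5). Fhit held 2.45, 2.71 and 2 kb in sgB2/T618I, against 1.02, 0.748 and 1.14 kb in sgNT/T618I, a change of 0.97 ± 0.17 (limma adjusted p = 0.0213). Its start-site region (chr14:11161819-11162224) was called in 3 and 0 libraries, and in 3 of 3 sgB2/Empty and 0 of 3 sgNT/Empty libraries. Sox5, a factor of cartilage and neural development, held 3.99, 3.22 and 3.19 kb in sgB2/T618I, against 1.53, 1.39 and 1.41 kb in sgNT/T618I (log2 change 1.03). The other windows called higher outside chromosomes 1 and X were Sspo (1.14), Car8 (1.11), Dld (0.995), Fgf4 (0.94), Vmn2r99 (0.94) and the shared window of Tfb1m and Cldn20 (0.97), all as log2 changes. Car8 entered the test only through its sgB2/T618I values. Vmn2r99 belongs to a family of vomeronasal receptor genes whose copies can share reads, so its place is uncertain. Sox5 and Fgf4 were at 0.22 and 0.07 with equal-length lists, and their calls were lost. With 10 kb around the gene Dld was at 0.34 and Tfb1m at 0.16, and their calls were lost too.

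**Figure D2:**
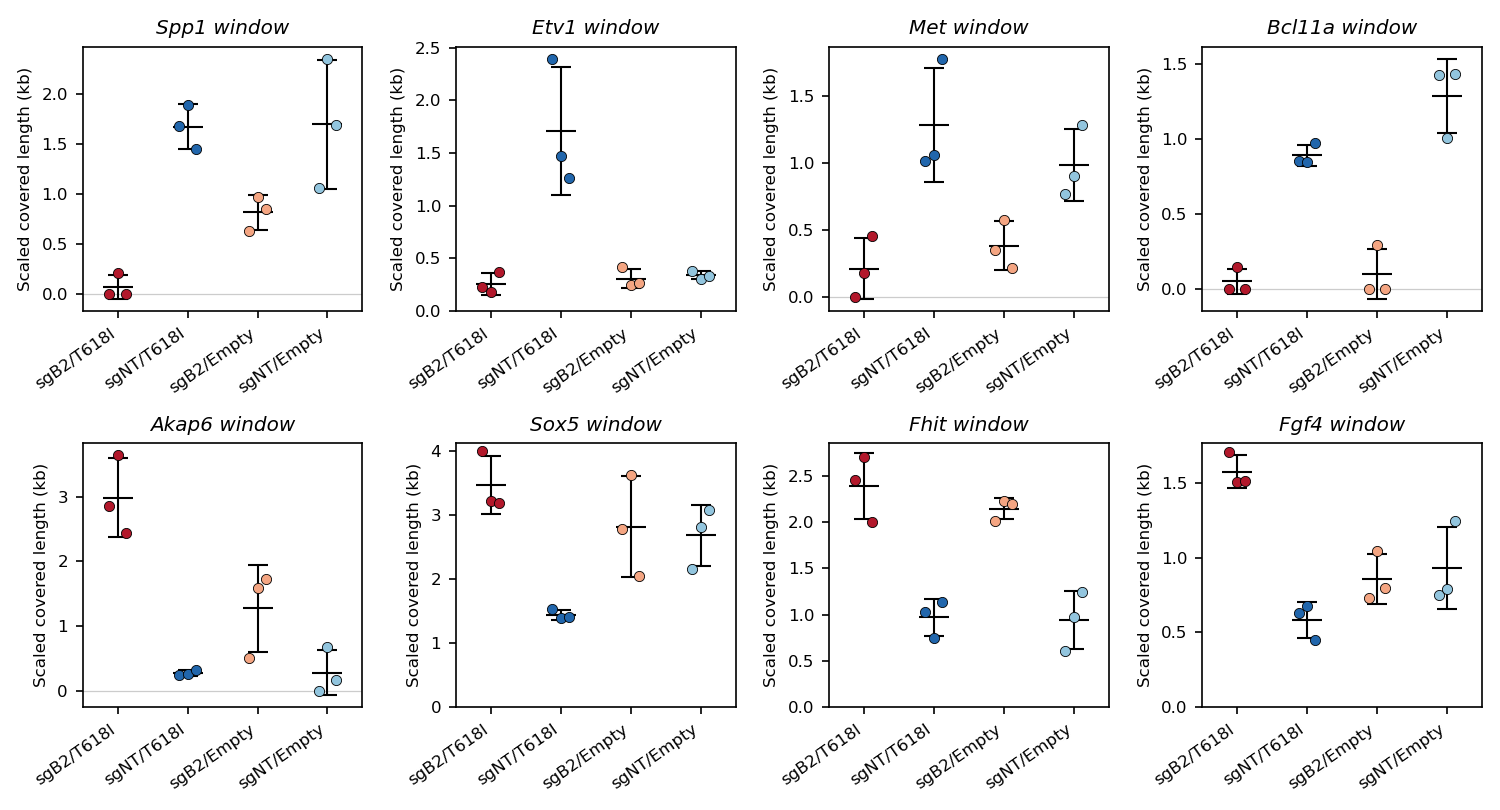
Scaled covered length (kb, y axis) in the windows of 4 genes that were lower (top row) and 4 that were higher (bottom row) in sgB2/T618I, by group. Points are libraries and bars are the mean ± SD of 3; in each panel the sgB2/T618I and sgNT/T618I points do not overlap.

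The same windows were read in the Empty libraries, none of which is in either T618I group. They did enter the same limma fit, with its shared estimate of the spread, and the same filter on low values. A window past the threshold in both comparisons is therefore not an independent repeat. Of the windows called outside chromosomes 1 and X, 11 of 13 higher and 17 of 19 lower ones had a change of the same sign between sgB2/Empty and sgNT/Empty, where 61.0% of all windows there had the same sign in both comparisons. Bcl11a, Calml3, Fhit and Sspo were also past the threshold with the Empty vector. Bcl11a held 0, 0.291 and 0 kb in sgB2/Empty, against 1.42, 1 and 1.43 kb in sgNT/Empty (log2 change -1.61, limma adjusted p = 0.0025). Fhit held 2.01, 2.22 and 2.19 kb in sgB2/Empty, against 0.608, 0.974 and 1.24 kb in sgNT/Empty (log2 change 0.90, limma adjusted p = 0.0388). Spp1 held 0.633, 0.974 and 0.847 kb in sgB2/Empty, against 1.06, 2.35 and 1.69 kb in sgNT/Empty (log2 change -0.70, limma adjusted p = 0.18). Etv1 held 0.418, 0.245 and 0.266 kb in sgB2/Empty, against 0.384, 0.306 and 0.337 kb in sgNT/Empty, so that the window was covered above 1 kb only in sgNT/T618I. The difference between the guide's changes with T618I and with Empty was -1.45 ± 0.28 for Etv1 and -1.28 ± 0.24 for Ryr2 (SE, log2), with a limma adjusted p of 0.372 for each over all windows. That difference passed the threshold for 1 window of 15285 (0.00654%), that of Amot on chromosome X, while 765 had an unadjusted p below 0.05. The Amot call was lost when any of the 6 T618I libraries other than sgNT/T618I replicate 2 was left out (limma adjusted p of 0.0576 to 0.129 over those 5).

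On chromosome 1, 12 windows were higher and none lower (1.27% and 0% of 945), against a median log2 change of 0.29 for the chromosome. On chromosome X, 6 windows were lower and none higher (1.65% and 0% of 364), with a median of -0.03. The 4 largest changes on chromosome 1 at separate loci were those of Dst (1.58), a cytoskeletal linker gene, Sh3bp4 (1.53), Asb18 (1.48) and Rgs13 (1.39), a regulator of G-protein signalling in B and mast cells. Dst and Asb18 entered the test only through their sgB2/T618I values. Rgs13 held 0.86, 0.707 and 0.876 kb in sgB2/T618I and was listed at 0 in every sgNT/T618I library. Mdm4, an inhibitor of p53, held 3.95, 4.13 and 4.2 kb in sgB2/T618I, against 2.57, 2.4 and 2.23 kb in sgNT/T618I (log2 change 0.66). On chromosome X, Pls3, an actin-bundling protein gene, held 0.381, 0.304 and 0.209 kb in sgB2/T618I, against 2.9, 3.14 and 3.18 kb in sgNT/T618I (log2 change -2.17). The window of Bmx, a TEC-family kinase, fell by 1.44, and those of Psmd10 and Atg4a, which overlap, by 1.18 and 1.39. With 10 kb around the gene the change of Psmd10 was -0.046, and its call was lost. Amot, a scaffold of the Hippo pathway, was listed at 0 in all 3 sgB2/T618I libraries, against 1.17, 1.13 and 1.02 kb in sgNT/T618I, from 1 region at the gene's end (chrX:145504723-145506223). With the Empty vector that region was called in all 6 libraries. Whether the shift of chromosome 1 or X had a part in these windows was not tested.

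Gene lists for myeloid maturation, cytokine signalling and Polycomb, and for other cell types, were read against the share called over all windows (0.164% each way). Of 19 lists with 436 distinct genes, Bcl11a (among 20 stem and progenitor genes tested) and Spp1 (among 20 monocyte, macrophage and dendritic cell genes tested) were the called members, both lower. Bcl11a would not have entered the test without its sgNT/T618I values. The lists' median log2 changes ran from -0.46 to 0.11, beside 0.035 for all windows tested. The window of Elane, neutrophil elastase, held 6.51, 6.16 and 6.73 kb in sgB2/T618I, against 8.52, 8.19 and 8.45 kb in sgNT/T618I (log2 change -0.35, limma adjusted p = 0.304). Of 16 primary granule genes tested, 11 had a negative and 5 a positive change (median -0.11). The highest was that of Ms4a3 (log2 change 0.58, limma adjusted p = 0.255). For the 20 genes tested of secondary and tertiary granules, which form later in neutrophil maturation, 16 changes were negative with a median of -0.19 and none was called. Cd177, a neutrophil surface protein, held 0.852, 0.461 and 0.719 kb in sgB2/T618I, against 1.96, 1.23 and 1.89 kb in sgNT/T618I (log2 change -0.90, limma adjusted p = 0.108). The alarmin genes S100a8 and S100a9 share their peaks here, with 5.5, 5.49 and 4.9 kb in sgB2/T618I, against 6.51, 7.38 and 5.9 kb in sgNT/T618I (log2 change -0.29). None of the 27 mature neutrophil genes was called, and their median was -0.08.

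In the signalling lists, 0 of 25 JAK-STAT target, 27 cytokine receptor, 31 NF-kB and AP-1, 24 chemokine and 18 interferon response genes tested were called, which at a background of 0.164% each way says nothing particular to these lists. Of the JAK-STAT targets 12 changes were positive and 13 negative. Ccnd1, a G1 cyclin, held 1.38, 1.65 and 1.42 kb in sgB2/T618I, against 1.24, 0.95 and 0.721 kb in sgNT/T618I (log2 change 0.44, limma adjusted p = 0.468). Ccnd2, another G1 cyclin, held 0.943, 2.24 and 1.04 kb in sgB2/T618I, against 2.58, 2.75 and 3.1 kb in sgNT/T618I (log2 change -0.85, limma adjusted p = 0.139). Socs3, a feedback inhibitor of CSF3R, held 4.21, 4.12 and 4.22 kb in sgB2/T618I, against 5.19, 5.13 and 4.8 kb in sgNT/T618I (log2 change -0.24, limma adjusted p = 0.429). The highest changes in the NF-kB and AP-1 and the cytokine receptor lists were those of the cytokine gene Il6 (0.55) and of Il18r1, an interleukin-18 receptor gene on chromosome 1 (0.59), and neither passed. Csf3r held 4.27, 4.46 and 4.42 kb in sgB2/T618I, against 4.7, 4.36 and 4.39 kb in sgNT/T618I, which overlap. None of 41 genes of the ASXL, BAP1 and Polycomb complexes was called (median 0.02), nor any of 7 developmental Polycomb targets tested of 31 listed. All 9 Hox genes tested had negative changes (median -0.46), but 8 of them, Hoxb2 to Hoxb9, lie so close that they share nearly the same peaks, so they count as 1 locus. Hoxb8 held 0.678, 1.04 and 0.465 kb in sgB2/T618I, against 1.35, 1.04 and 1.1 kb in sgNT/T618I (log2 change -0.46, limma adjusted p = 0.527).

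Among markers of other cell types, 0 of 16 lymphoid, 19 erythroid and megakaryocyte, and 16 mast cell, basophil and eosinophil genes tested were called, beside 0.164% each way over all windows. The mean covered length over the lymphoid list was 1.59 ± 0.09 kb in sgB2/T618I and 1.51 ± 0.03 kb in sgNT/T618I (SD, n = 3 each). Of the lymphoid changes 11 were positive and 5 negative, with a median of 0.11. Tcf7, a T-lymphoid factor, held 1.58, 1.62 and 1.98 kb in sgB2/T618I, against 1.17, 1.02 and 0.936 kb in sgNT/T618I (log2 change 0.53, limma adjusted p = 0.392). Ebf1, the B-lymphoid factor, had the lowest change of the list and held 0.386, 1 and 0.462 kb in sgB2/T618I, against 1.29, 1.48 and 1.21 kb in sgNT/T618I (log2 change -0.75, limma adjusted p = 0.108).

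**Figure D3:**
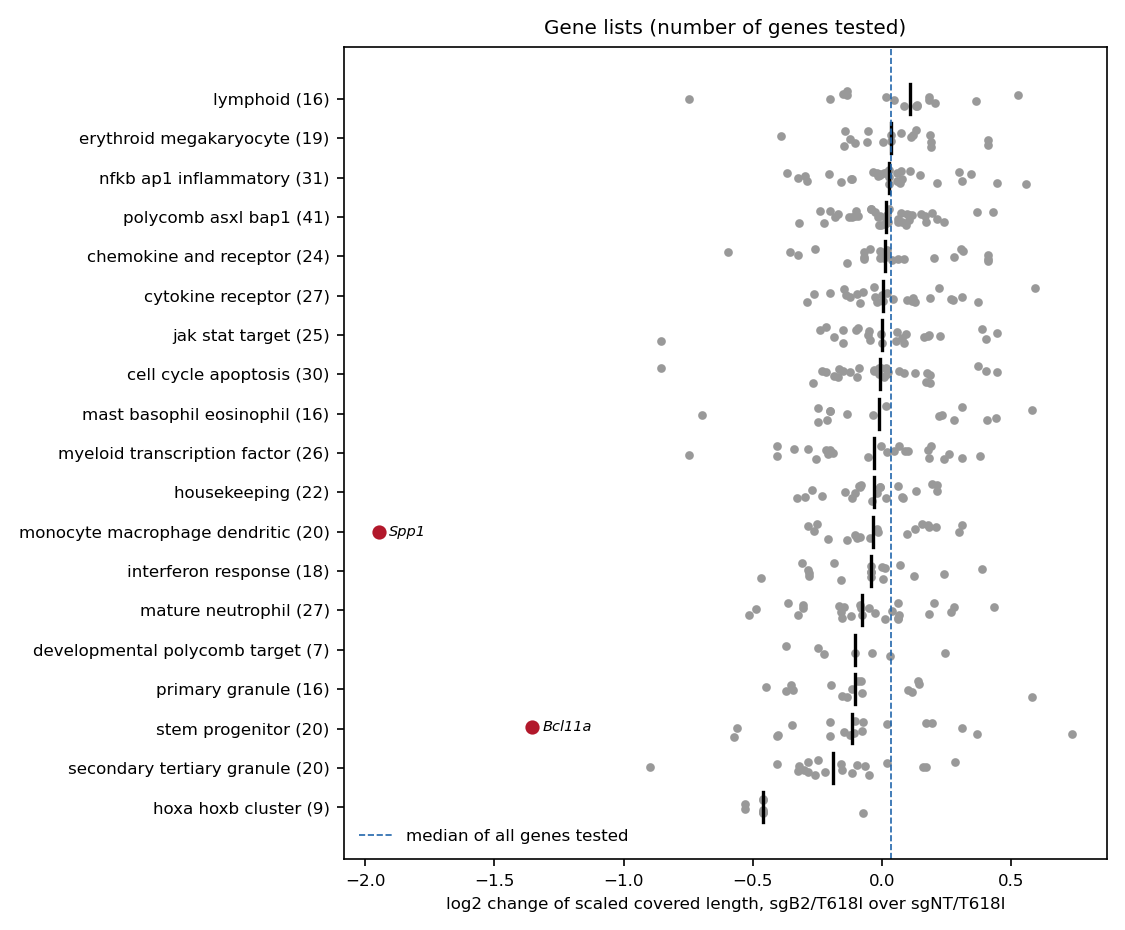
Log2 change of scaled covered length (x axis, sgB2/T618I over sgNT/T618I) of each gene tested in the 19 lists (rows, with the number tested). Black bars are list medians, the dashed line is the median of all windows, and the red points, Spp1 and Bcl11a, are the members past an adjusted p of 0.05.

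Single regions were then compared by presence. Peaks of the 12 lists merged to 56682 regions, and 26691 of these had a peak in 3 or more T618I libraries. A region was counted as gained when all 3 sgB2/T618I libraries and no sgNT/T618I library had a peak there, and as lost in the opposite case. On all chromosomes 326 regions were gained (1.22%) and 684 lost (2.56%). Outside chromosomes 1 and X, 251 regions were gained (1.04% of 24130) and 627 lost (2.6%). On chromosome 1, 72 were gained and 15 lost of 2003, and on chromosome X 3 were gained and 42 lost of 558. The counts differed between settings: with equal-length lists, 284 were gained and 363 lost outside chromosomes 1 and X, and with stricter peaks (−log10 q of at least 3) 156 and 612. With 1 library left out, which loosens the rule to 2 against 3, gained regions outside these chromosomes numbered 590, 336 and 697 without sgB2/T618I replicates 1, 2 and 3, and 378, 312 and 407 without sgNT/T618I replicates 1, 2 and 3. Lost regions numbered 775, 1597 and 748, and 909, 1215 and 919, in the same order.

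A rule of 3 against 0 selects weaker peaks, so rank, width and place are given as a description of the gained and lost sets. Of the gained regions 11.6% and of the lost regions 13.4% lay within 1 kb of a protein-coding gene's end, against 48.6% of the 15680 regions present in all 6 libraries and 35.7% of those in at least 3, while 50.2% of gained, 39.2% of lost and 22.6% of always present regions lay between genes. Their median rank by −log10 p within a list was 25.2 for gained and 25.2 for lost regions, against 67.0 for regions in all 6 and 51.4 for those in at least 3, on a scale where 100 is the strongest peak. Median widths were 457 bp for gained, 514 bp for lost and 838 bp for always present regions.

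**Figure D4:**
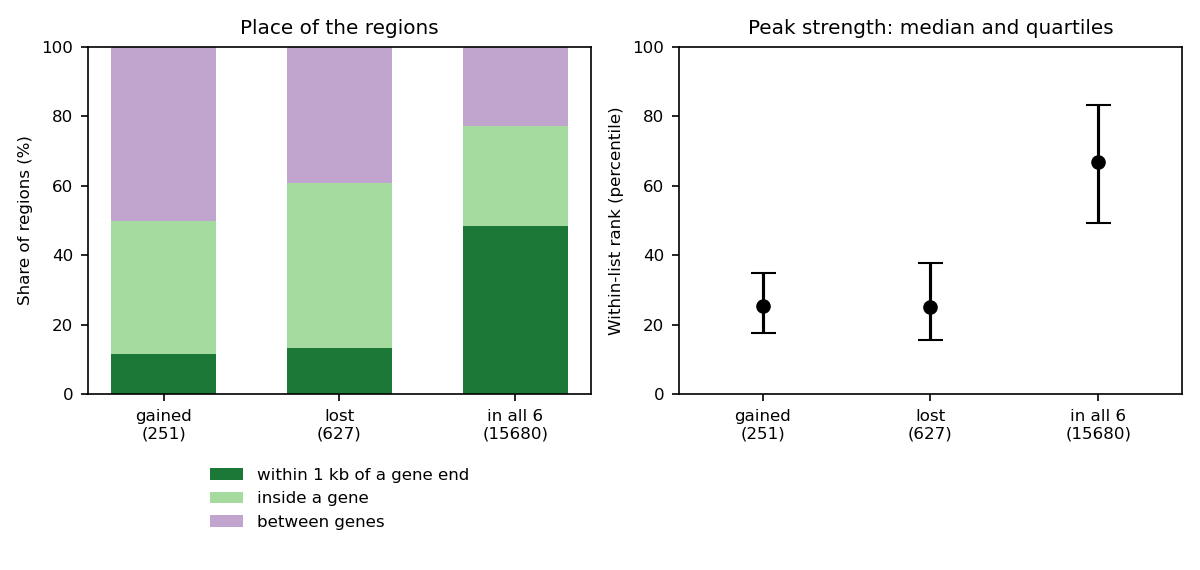
Left, the share of regions (%, y axis) near a gene end, inside a gene or between genes, for gained, lost and always present regions outside chromosomes 1 and X, with their numbers below. Right, the median and quartiles of the within-list rank (percentile, y axis), which was 25.2 for both changed sets and 67.0 for regions in all 6 libraries.

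The strongest gained region lay within 1 kb of an end of Pcbp3, an RNA-binding protein gene (chr10:76961713-76962271). It ranked 84.7, 85.6 and 91.3 in the sgB2/T618I lists, had no peak within 8.71 kb in any sgNT/T618I list, and was also present in 3 of 3 sgB2/Empty and 0 of 3 sgNT/Empty libraries. The next regions, 1 per nearest gene, were inside Arhgef12, a guanine nucleotide exchange factor gene (chr9:43096387-43096765), 63.2 kb from Cacng3, inside Zfp467 (chr6:48443847-48444659, in the Sspo window), at an end of Afap1, and inside Lrig3. After them came regions 47.0 kb from Lpl, lipoprotein lipase, near Cyp4f37 and Gm51425, and inside Sema4d, a semaphorin gene. The Arhgef12 region was present in 3 of 3 sgB2/Empty and 0 of 3 sgNT/Empty libraries, while the Afap1 region was present in all 6 Empty libraries.

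The strongest lost region lay within 1 kb of an end of Nos3, endothelial nitric oxide synthase (chr5:24383216-24383903). It ranked 80.8, 80.3 and 85.2 in the sgNT/T618I lists and had no peak in sgB2/T618I, and in the Empty libraries it ranked 12.6, 20.6 and 11.5 with sgB2, against 41.1, 57.4 and 63.1 with sgNT. The lost region nearest to Zfp324 (chr7:12949423-12950025) ranked 82.1, 79.3 and 83.4 in sgNT/T618I and was listed in 1 of 3 sgB2/Empty and 3 of 3 sgNT/Empty libraries. A region inside Ppp1r9a, a neuronal actin-binding protein gene, was called in none of 3 sgB2/Empty and 3 of 3 sgNT/Empty libraries. Lost regions nearest to Celf2, Ccr1, Hacd2, Zeb2, Spatc1 and Mef2c were called in none of the 6 Empty libraries, and the one inside Eps8 in 1. Ccr1 is a chemokine receptor of myeloid cells, and its lost region, 25.2 kb away (chr9:123936684-123936971), had the nearest sgB2/T618I peak at 1.15 kb, the shortest such distance among the 20 regions named.

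Lost regions in the windows of listed genes included 1 within 1 kb of a gene end in the window of Mpo, myeloperoxidase (chr11:87804981-87807420), which was called in all 6 Empty libraries. Erg and Fli1, ETS-family factors of blood progenitors, had 2 lost regions each, and Irf4, Etv6, Socs2, Pim1, Osm, Csf2rb and Tlr4 had 1 each. The Asxl1 window had a lost region 5.31 kb past the gene, inside another gene (chr2:153409312-153410642). Its mean rank was 19.4, and it was called in 2 of 3 sgB2/Empty and 1 of 3 sgNT/Empty libraries. The Bap1 window had 1 lost region (chr14:31228038-31229138, mean rank 14.6), called in 0 of 3 sgB2/Empty and 3 of 3 sgNT/Empty libraries. Gained regions lay in the windows of Spi1 (chr2:91084348-91084722) and Cebpa (chr7:35154357-35154736), the master factors of granulocyte and macrophage fate, and of Itgam (chr7:128044580-128044992), with mean ranks of 17.8, 22.4 and 25.1. Outside chromosomes 1 and X, in the stem and progenitor windows 5 of 98 regions were lost (5.10%) and none gained, and in the ASXL, BAP1 and Polycomb windows 7 of 173 were lost (4.05%) and none gained. In the mature neutrophil windows 2 of 135 were gained (1.48%) and 3 lost (2.22%). In the myeloid transcription factor windows 2 of 164 were gained (1.22%) and 4 lost (2.44%). Lost shares were 4.82% (4 of 83) in the interferon response windows and 4.29% (3 of 70) in the chemokine windows. Over all lists the lost share ran from 0 to 5.56%. Of all regions outside these chromosomes 1.04% were gained and 2.6% lost. On chromosomes 1 and X, regions in the Ikzf2 and Hcfc1 windows and 2 regions shared by the Il1rl1 and Il18r1 windows were gained. A region in the Pgk1 window on chromosome X was lost.

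The Empty libraries again gave samples that the presence rule had not used. Of the 251 gained regions, 86 had a peak in more sgB2/Empty than sgNT/Empty libraries, 27 in fewer and 138 in as many. Of the 627 lost regions, 40 had a peak in more, 321 in fewer and 266 in as many, whereas of the 24130 regions in at least 3 T618I libraries 2860 had more, 4449 fewer and 16821 as many. The share of gained regions with a peak was 21.5, 32.7 and 37.8% in the sgB2/Empty libraries, against 5.58, 19.9 and 21.1% in the sgNT/Empty libraries. Each sgB2/Empty library stood above every sgNT/Empty library (exact permutation p = 0.1, two-sided). The share of lost regions with a peak was 15.6, 23.4 and 29.3% in sgB2/Empty, against 27.4, 55.3 and 65.1% in sgNT/Empty, with 1 overlap (exact permutation p = 0.2). These shares moved with list length, and sgNT/Empty replicate 1 had the shortest list. In lists of equal length, a choice made after seeing the data, gained regions had a peak in 21.9 ± 1.59% against 5.84 ± 1.61%, and lost regions in 13.3 ± 1.21% against 29.4 ± 1.71% (sgB2/Empty against sgNT/Empty, SD, n = 3 each, exact permutation p = 0.1 for both). The share for all regions in at least 3 T618I libraries was 64.1 ± 0.65% and 64.4 ± 1.51% (exact permutation p = 0.7).

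**Figure D5:**
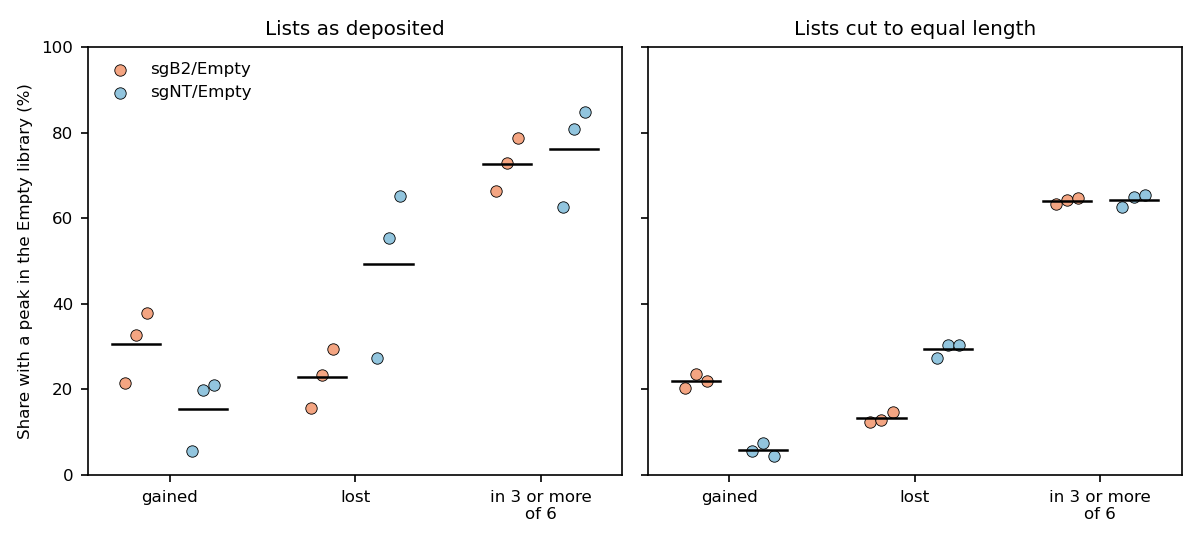
Share of regions (%, y axis) with a peak in each sgB2/Empty and sgNT/Empty library, for lists as deposited (left) and lists of equal length (right). The sets are gained regions, lost regions and all those in at least 3 T618I libraries, outside chromosomes 1 and X. Points are libraries and lines are means of 3; with equal lengths the gained set lies at 20.3 to 23.5% with sgB2/Empty and 4.38 to 7.57% with sgNT/Empty.

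By the stricter rule of 3 against 0 in the Empty libraries, 16 of the 251 gained regions were gained there too (6.37%, and 8.16% of the 196 gained with Empty), and 56 of the 627 lost regions were lost (8.93%, and 17.6% of 318). Of the 24130 regions in at least 3 T618I libraries, 113 were gained and 201 lost with Empty. In the opposite direction there were 0 and 1. Of the gained regions 114, and of the lost regions 152, had no peak in any Empty library, beside 1906 of those 24130. Lost regions lay in runs of 3, each no more than 50 kb from the next, at Pik3ap1, an adaptor of phosphoinositide 3-kinase (chr19:41369628-41418326), and at Wipf1, a partner of the Wiskott-Aldrich syndrome protein (chr2:73463920-73529628). No run of gained regions was found.

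Peak strength within the lists was compared over the 17255 regions present in all 6 libraries, as the percentile rank of a region by −log10 p in its own list. Ranks were higher in sgB2/T618I at 12 regions (0.0695%) and lower at 8 (0.0464%) at a limma adjusted p below 0.05, with 2204 at an unadjusted p below 0.05. The median change was -0.80 points over all regions and 6.28 points on chromosome 1, where 4 of the 12 lay. No call remained when sgB2/T618I replicate 1 or 3 or any sgNT/T618I replicate was left out. Without sgB2/T618I replicate 2, 4 of the 20 held.

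Inside Lmf1, a lipase maturation factor gene, a region (chr17:25583824-25584149) ranked 65.9, 69.9 and 73.8 in sgB2/T618I, against 10.4, 13.1 and 10.8 in sgNT/T618I (58.4 ± 7.25 points, SE, limma adjusted p = 0.0242). No Empty library had a peak there. At the start of Ece1 printed above, the region (chr4:137861850-137862535) ranked 75.8, 84.8 and 75 in sgB2/T618I, against 27.6, 39.4 and 40.4 in sgNT/T618I. With Empty it ranked 81.5, 85.2 and 85.9 with sgB2, against 23.4, 47.7 and 44.8 with sgNT. A region at an end of Garem1, an adaptor of growth factor signalling (chr18:21299772-21300731), ranked 92.7, 98.0 and 94.6 in sgB2/T618I, against 79.5, 79.3 and 79.0 in sgNT/T618I. With the Empty vector the Garem1 region ranked 96.9, 98.2 and 97.8 with sgB2, against 44.0, 40.6 and 47.8 with sgNT. The Ece1 and Garem1 regions ranked higher with the Asxl1 guide in each vector, without overlap. The other higher regions outside chromosome 1 were inside Wdpcp, Eml6 and Zfp536, at an end of Ccdc91, and 1.2 kb from Nat8. Their differences were 39.3 to 53.9 points. With Empty the Eml6 region had a lower mean rank with sgB2 (52.0) than with sgNT (64.9), with overlap. The Nat8 region was listed in 1 of 3 sgB2/Empty and 2 of 3 sgNT/Empty libraries. For Wdpcp these numbers were 3 and 0, for Ccdc91 3 and 2, and for Zfp536 1 and 0. On chromosome 1, regions inside Pnkd, at an end of Phlda3 and 63.9 kb from Aff3 differed by 13.1, 51.9 and 18.5 points.

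Lower ranks were found at the start of Plcb1 (chr2:134785845-134786783), with 13.2, 31.0 and 36.0 in sgB2/T618I, against 83.7, 76.9 and 65.4 in sgNT/T618I (-48.6 ± 8.38 points, SE, limma adjusted p = 0.0442). With Empty the Plcb1 region ranked 37.7, 53.1 and 58.1 with sgB2, against 54.8, 70.2 and 85.3 with sgNT, which overlap. A region 30.4 kb from Itgb1, the integrin beta-1 gene (chr8:128654589-128655304), ranked 27.2, 28.3 and 29.0 in sgB2/T618I, against 72.3, 76.8 and 69.8 in sgNT/T618I. A region inside Slc7a5, a large neutral amino acid transporter gene (chr8:121898159-121898922), ranked 79.8, 81.4 and 79.5 in sgB2/T618I, against 92.5, 94.0 and 97.3 in sgNT/T618I, and one inside Lrrc40 moved by -13.2 points. In the Empty libraries the Slc7a5 region ranked 66.2, 69.8 and 65.7 with sgB2, against 77.4, 85.3 and 88.2 with sgNT, again without overlap. The remaining lower regions lay near Gm38457, Rnaset2a and Emb and inside Xpnpep3, with differences of -53.0, -47.3, -46.2 and -26.8 points.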

How the data were processed

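ATAC-seq was deposited as 12 broad peak lists, 1 per library, and group, guide, vector and time were taken per the labels. The build mm10 and the tools BWA 0.7.17, SAMtools 1.9, bedtools 2.30, MACS2 2.2.7.1 and deepTools 3.5 are named, without their settings, per the submitters' processing notes. The deposited score and the deposited fold were not used. The deposited −log10 p ranked peaks within a list, and the deposited −log10 q defined stricter peaks. Read depth is unknown. Peaks overlapping by 1 bp or more were merged. Protein-coding genes were 21631 of RefSeq GRCm38.p6, with windows of the gene and 50 kb on each side, and those averaging 500 bp or more entered the test. Log2 values were fitted with limma 3.58.1 (trend, R 4.3.3) to 4 groups with 8 residual degrees of freedom, and ranks to 2 groups, with Benjamini-Hochberg adjustment over all features. Tables and figures used python 3.11.15, numpy 2.4.6, pandas 2.3.3 and matplotlib 3.10.9. Scripts were tested on simulated data. Genes named outside chromosomes 1 and X are the largest changes past the threshold, up to 12 per direction and 1 per locus, with 4 per direction on chromosomes 1 and X. Up to 4 genes per list by p, 10 gained and 10 lost regions by mean rank, and up to 8 rank changes per direction were also eligible, and other names were chosen after their values were seen. Members, lists and tests were chosen with earlier results of these data known. Alternatives tried included other scalings, windows, pseudocounts, filters, stricter peaks, equal-length lists, fewer libraries and a replicate block. A few features past the thresholds, and a marker gene, are not reported here.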

Additional observations from a re-analysis of the deposited data

Results flagged for a closer look

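The guide's change at Amot, on chromosome X, differed between the vectors. The window was listed at 0 in all 3 sgB2/T618I libraries, against 1.17, 1.13 and 1.02 kb in sgNT/T618I, and held 1.51, 1.22 and 1.26 kb in sgB2/Empty, against 1.5, 1.33 and 0.932 kb in sgNT/Empty. The change with T618I minus the change with Empty was -1.76 ± 0.23 (SE, log2, n = 3 per group, limma interaction adjusted p = 0.0167). Over the alternatives that tested it, the adjusted p ran from 0.00356 to 0.87. The cause was not tested.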

How the results depend on the processing

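Windows called higher and lower (25 and 25) numbered 1 and 4 without scaling, 5 and 8 with 10 kb windows, 100 and 95 with equal-length lists, 52 and 44 with the 6 T618I libraries alone, and 26 and 46 with stricter peaks. With 1 library left out they ran from 2 to 22 and from 5 to 39. With the replicate block they were 35 and 28. Of the 50 main calls, 11 were kept with 10 kb windows (32 tested) and 10 with stricter peaks (42 tested). With stricter peaks the calls of Chst12 (log2 change -0.74, limma adjusted p = 0.246) and Nme9 (0.82, limma adjusted p = 0.404) were among those lost. Same-numbered sgB2/T618I and sgNT/T618I libraries did not deviate together (correlations 0.004, -0.047 and -0.004 over windows). These values cannot tell whether same-numbered libraries were prepared together, and the Empty groups were not checked. For ranks the block gave 11 higher and 13 lower regions. Ranks computed outside chromosomes 1 and X gave 7 and 7, and leaving out 1 library gave 0 to 1 higher and 0 to 5 lower. Gained regions (326 on all chromosomes) were 205 with stricter peaks and 411 to 891 with 1 library left out, and lost regions (684) were 388 with equal-length lists and 816 to 1732. The interaction call (1 named window, Amot) was lost (0) with a pseudocount of 1000 bp and equal-length lists, was not tested with a filter at 1000 bp, which removed the window (0 called), and was kept (1) with the replicate block. With 1 library left out, 0 to 2 windows were called. The difference in peak number (-891) ran from -3768 to 872 and that in the share near gene ends (0.52) from -1.01 to 2.88 percentage points. The sign turned for Gabpa (0.021 with 10 kb windows) and Csf3r (-0.046 to 0.0032 with 1 library left out). The causes were not tested.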
